A study of Lupinus albus with 12 samples.

Results

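Leaves of phosphorus-deficient white lupin (Lupinus albus) plants were compared with leaves of phosphorus-sufficient plants. The comparison rests on 6 of the 12 libraries of the series, 3 biological replicates per supply, and the other 6 libraries come from roots. The 3 deficient leaf samples came from plants of variety Ultra given 1 mM calcium sulfate, and the 3 sufficient ones from plants of the same variety given 1 mM calcium phosphate. All were harvested 14 days after emergence from a growth chamber with a 16 h photoperiod at 20 °C by day and 15 °C by night. The labels name the supply once as a soil and once as a solution, and they do not say which leaves were taken, how many plants a sample held or at what hour it was harvested. Of the 125535 sequences in the expression table, 67341 (53.64%) reached at least 1 RPKM (reads divided by sequence length and by library total) in at least 3 of the 6 leaf libraries and were tested. Of these, 51474 carry an informative description, which was taken from the best protein match in the deposited annotation.

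Phosphate is needed for nucleic acids, membrane phospholipids and the sugar phosphates of photosynthesis. In Arabidopsis, plants short of it make acid phosphatases and ribonucleases that release phosphate from organic compounds, replace phospholipids by galactolipids and sulfolipids, and produce SPX proteins, which bind inositol phosphates and restrain the transcription factor PHR1. White lupin is known for the clusters of short rootlets it forms under low phosphorus, and its leaves supply those roots with sugar.

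The leaf label was checked against marker genes. Sequences of the small subunit of Rubisco summed to 12348.6 to 62270.6 RPKM in the leaf libraries, against 16.9 to 102.1 RPKM in the root libraries. Of 16 root markers, 2 to 6 were at 0 in each leaf library and 0 in each root library. By level they separated the tissues less, with sums of 64.1 to 227.8 RPKM in leaf libraries against 286.9 to 684.6 RPKM in root libraries. The library of deficient replicate 3 stood apart from the other 5. There 70.91% of all RPKM fell to the top 20 sequences, where the others had 12.51% to 17.98%, and 17 of the 20 lack an informative description. These 17 stood at 6202.1 to 133862.3 RPKM there, 11.3 to 114 times the highest of the other leaf libraries. They made up 69.26% of its sum, where the remaining leaf libraries had 1.13% to 2.38% and the root libraries 2.32% to 5.32%. Its median tested sequence was at 1.3 RPKM, against 3.2 and 3.7 in the other deficient leaves and 3.2, 3.3 and 3.3 in sufficient leaves. A second measure also moved with supply. Morning clock genes (LHY and CCA1) were set against evening clock genes, among them GI and APRR5. The morning minus evening difference of mean log2 levels was 2.69, 1.64 and 1.22 in deficient leaves, against 1.17, -2.32 and -2.35 in sufficient leaves. Sufficient replicate 1 thus lay beside the deficient libraries and far from the other sufficient ones.

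**Figure D1:**
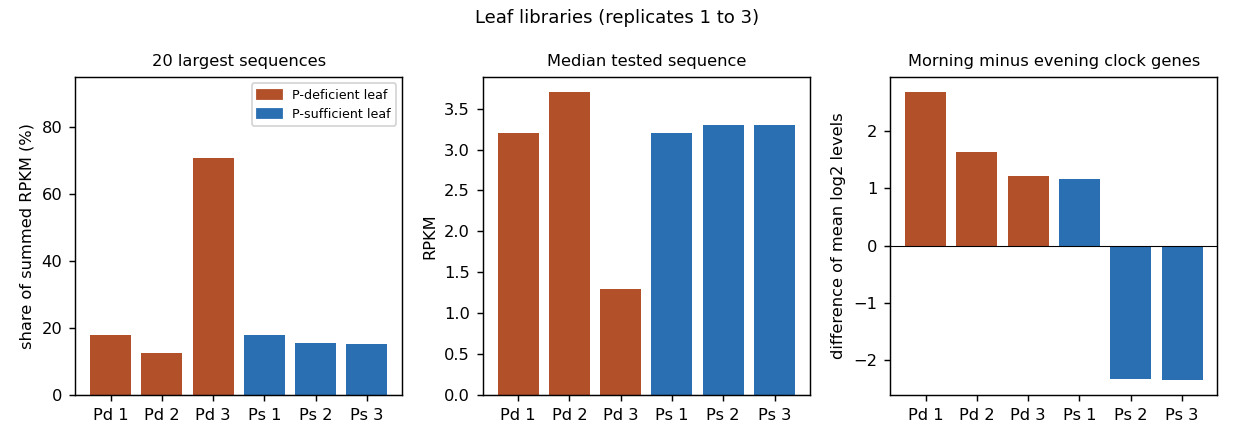
Properties of the leaf libraries, with deficient replicates (Pd 1 to 3) left of sufficient ones (Ps 1 to 3): the share of summed RPKM in the 20 largest sequences (%), the median RPKM of the tested sequences, and the mean log2 level of morning minus that of evening clock genes. Deficient replicate 3 has a 20-sequence share of 70.91% and a median of 1.3 RPKM, and sufficient replicate 1 has a clock difference of 1.17, near the 1.22 of deficient replicate 3.

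Between deficient and sufficient leaves, 185 of 67341 sequences passed limma at an adjusted p below 0.05 (0.275% of those tested, with 6211 at an unadjusted p below 0.05, 1.02% higher and 8.2% lower). Of these calls, 24 were higher (0.0356%) and 161 lower (0.239%), so that 87% were falls. The groups did not overlap in 24 of the 24 rises and 154 of the 161 falls. Where all 3 libraries of a group lay below 1 RPKM, a sequence was tested only if the other 3 reached 1. In such sequences, among rises and falls alike, the lack of overlap was set by that filter. Over all tested sequences, deficient libraries lay wholly above in 0.536% and wholly below in 4.87%. The median log2 change of all tested sequences was -0.29 and 77.3% of them were below 0. After median-of-ratios scaling that median was -0.04, and 27 sequences were higher (0.0401%) and 80 lower (0.119%), so that 74.8% of the calls were then falls. Of the 24 rises 18 were also called after scaling, and of the 161 falls 53 were. Deviations from the group means correlated between libraries of the same replicate number, though replicates 2 and 3 were not separated by it. With the replicate number as a block 618 sequences were called, 85 higher and 533 lower, and these include all 185.

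The count of calls rested on single libraries. Without deficient replicate 3, 4 sequences were called, 3 higher and 1 lower (4543 at an unadjusted p below 0.05). Those 4 were LAGI01_72026, LAGI01_66113, LAGI01_79631 and the fall LAGI01_51568, none of which has an informative description. Without sufficient replicate 1, 2503 were called, 325 higher and 2178 lower. All 185 calls kept their sign without deficient replicate 3, with a median size of 2.13 on the log2 scale, against 2.48 with it, and each of the 24 rises was then larger. When the clock gene difference entered the fit as a covariate, all 185 kept their sign, and 13 rises and 2 falls kept their call. Sufficient replicate 1 was the lowest of the sufficient libraries in 149 of the 161 falls. The part of the outlying library, of the clock difference and of composition in these calls was not tested.

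The sequences that rose fell into 2 kinds: 11 described ones, of which 10 are phosphatases, and 13 without an informative description. Purple acid phosphatases are metal-containing enzymes that split phosphate from organic esters. PAP17 (LAGI01_79787), which is induced by phosphate starvation in Arabidopsis, stood at 5.1, 30 and 9.8 RPKM in deficient leaves, against 1.1, 1.2 and 0.4 RPKM in sufficient leaves. Its log2 change was 3.16 (SE 0.49, limma adjusted p = 0.00651). PAP3 (LAGI01_34342) stood at 8.6, 56.5 and 14.2 RPKM in deficient leaves, against 0.8, 4.3 and 1.4 RPKM in sufficient leaves (log2 3.11, SE 0.57, limma adjusted p = 0.018, and 0.0514 after scaling). In both genes every deficient library lay above every sufficient one, and deficient replicate 2 was the highest. PAP12, known in Arabidopsis as a secreted acid phosphatase induced by low phosphate, rose in 2 of its 4 tested sequences. LAGI01_29803 stood at 13.4, 34.6 and 10.9 RPKM in deficient leaves, against 1.4, 4.2 and 1.9 RPKM in sufficient leaves (log2 2.67, limma adjusted p = 0.0326). LAGI01_28185 had a log2 change of 2.71 (limma adjusted p = 0.0314). These 4 were the calls among 52 tested purple acid phosphatase sequences of 62 in the table. The list had 0 lower, and its median log2 change was -0.15, against -0.29 over all tested sequences.

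A further 6 rises are described only as phosphatase, among 10 tested sequences of 16 with that description. LAGI01_58330, the most abundant of them, stood at 5.0, 75.9 and 13.4 RPKM in deficient leaves, against 0.9, 1.6 and 0.4 RPKM in sufficient leaves. LAGI01_31197 stood at 2.5, 46 and 6.0 RPKM in deficient leaves, against 0.2, 0.3 and 0.0 RPKM in sufficient leaves. The order of the deficient libraries was the same in both, with replicate 2 highest and replicate 1 lowest. The groups did not overlap, which the filter on low values had set for LAGI01_31197. The log2 changes of the 6 ran from 2.73 to 3.89 (limma adjusted p from 0.00898 to 0.0361), and 2 of the 6 stayed called after scaling. Without deficient replicate 3 they ran from 2.92 to 4.17. The values of these sequences may come from shared reads, since how the authors assigned reads between near-identical copies is not given in the sources used here.

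The largest rises had no informative description. LAGI01_61664 stood at 43.2, 126.4 and 25.1 RPKM in deficient leaves, against 2.8, 1.9 and 0.1 RPKM in sufficient leaves (log2 4.96, SE 0.61, limma adjusted p = 0.000905). LAGI01_71501, the most abundant of the rises, stood at 58.6, 196.3 and 42.2 RPKM in deficient leaves, against 7.3, 5.4 and 3.0 RPKM in sufficient leaves (log2 3.86, SE 0.52, limma adjusted p = 0.00208). LAGI01_66113 stood at 40.3, 110.8 and 21.2 RPKM in deficient leaves, against 3.1, 3.0 and 2.9 RPKM in sufficient leaves (log2 3.72, SE 0.49, limma adjusted p = 0.00166). In each of the 3 the lowest deficient library was well above the highest sufficient one, and the sufficient libraries lay close together in LAGI01_66113 but not in LAGI01_61664. LAGI01_63011 stood at 6.2, 42.9 and 7.7 RPKM in deficient leaves and was listed at 0.0, 0.1 and 0.0 RPKM in sufficient leaves (limma adjusted p = 0.000177). A pair of low sequences, LAGI01_105203 and LAGI01_125137, was listed at 0 in each sufficient leaf and at 1.2 to 2.2 RPKM in deficient leaves. Over the other 11 the log2 changes ran from 1.99 to 4.96, and 12 of the 13 were also called after scaling. The remaining described rise was LBD21 (LAGI01_70602), a member of the plant-specific LOB domain family of transcription factors. It stood at 6.3, 4.6 and 2.9 RPKM in deficient leaves, against 1.6, 0.4 and 0.4 RPKM in sufficient leaves (log2 2.04, limma adjusted p = 0.0352). It differed from the phosphatases in its order, since deficient replicate 1 was the highest. Of 2 tested LBD21 sequences only this 1 was called, and their median log2 change was 1.13. Deficient replicate 2 was the highest deficient library in 23 of the 24 rises.

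**Figure D2:**
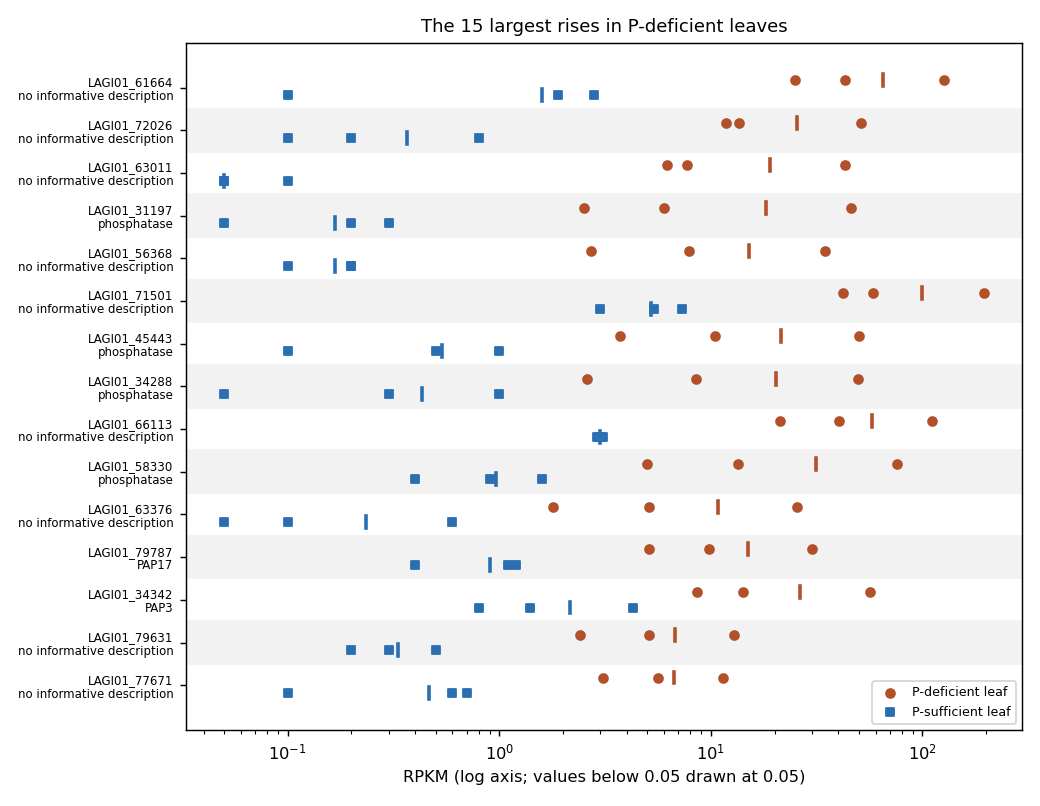
The 15 largest rises in RPKM on a log axis, with the 3 deficient leaf libraries (circles) above the 3 sufficient ones (squares) for each sequence and a bar at each group's mean. The groups do not overlap in any of the 15, which the filter set where every sufficient value is below 1 RPKM. PAP17 and PAP3 are the named purple acid phosphatases among the 15.

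The other gene groups known from phosphate starvation had few or 0 calls, and the medians of SPX proteins and S-like ribonucleases were the highest among them. SPX proteins had 0 of 10 tested sequences called with limma (4 higher at an unadjusted p below 0.05) and a median log2 change of 0.93, or 1.22 after scaling. SPX2 (LAGI01_55123) stood at 1.8, 18.6 and 5.4 RPKM in deficient leaves, against 0.4, 2.3 and 1.2 RPKM in sufficient leaves (log2 1.97, SE 0.55, limma adjusted p = 0.152). A second SPX2 sequence, LAGI01_46243, stood at 2.2, 18.8 and 5.1 RPKM in deficient leaves, against 0.7, 2.4 and 1.5 RPKM in sufficient leaves (limma adjusted p = 0.175). Deficient replicate 1 lay below sufficient replicate 2 in both. The sum over the SPX list was 26.6, 150.7 and 40.1 RPKM in deficient leaves, against 19.9, 31.9 and 24.1 RPKM in sufficient leaves.

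Membrane lipid remodelling had 0 of 116 called with limma (26 higher and 2 lower at an unadjusted p below 0.05), 1 higher after scaling and 4 higher with the replicate block. Its median log2 change was -0.07, or 0.20 after scaling. MGD2 (LAGI01_25059), a galactolipid synthase that Arabidopsis induces under low phosphate, stood at 2.6, 27.9 and 4.6 RPKM in deficient leaves, against 0.5, 2.2 and 0.8 RPKM in sufficient leaves. The groups did not overlap (log2 2.33, SE 0.58, limma adjusted p = 0.0921, and 0.0264 with the replicate block). Summed over its 11 sequences, MGD2 stood at 26.6, 115.2 and 26.2 RPKM in deficient leaves, against 13.2, 12.0 and 13.3 RPKM in sufficient leaves. The sulfolipid synthase SQD2 (LAGI01_85790) stood at 4.0, 12.2 and 3.8 RPKM in deficient leaves, against 1.9, 2.4 and 0.7 RPKM in sufficient leaves (log2 1.63, limma adjusted p = 0.17). A glycerophosphoryl diester phosphodiesterase (LAGI01_40699), of the family that breaks down deacylated phospholipids, stood at 16.6, 33.8 and 9.4 RPKM in deficient leaves, against 4.4, 8.3 and 4.6 RPKM in sufficient leaves (log2 1.57, limma adjusted p = 0.201). These 3 sequences came under a rule that took only sequences whose groups did not overlap, so their separation was set by the choice. Replicate 2 was again the highest deficient library in each. Summed over its 19 sequences, SQD2 overlapped, at 256.3, 432.4 and 114.4 RPKM in deficient leaves against 192.2, 225.1 and 202.7 RPKM in sufficient leaves.

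S-like ribonucleases, which release phosphate from RNA, had 0 of 6 called with limma (3 higher at an unadjusted p below 0.05) and a median log2 change of 0.95, or 1.27 after scaling. The sequence with the smallest p, a ribonuclease T2 family member (LAGI01_70978), stood at 1.5, 10.1 and 3.5 RPKM in deficient leaves, against 2.1, 0.3 and 0.2 RPKM in sufficient leaves, and its groups overlapped. Its relative LAGI01_58138 stood at 7.6, 40 and 23.9 RPKM in deficient leaves, against 13.4, 4.3 and 3.4 RPKM in sufficient leaves (log2 1.65, limma adjusted p = 0.273). For RNS2, a ribonuclease of the vacuole and endoplasmic reticulum, the sum of 4 sequences was 64.2, 123.5 and 37.1 RPKM in deficient leaves, against 33.3, 42.1 and 35.5 RPKM in sufficient leaves.

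Phosphate transporters had 0 of 36 called with limma (1 higher and 6 lower at an unadjusted p below 0.05), and 2 were lower after scaling. The median log2 change was -0.14, or 0.19 after scaling. PHT5 (LAGI01_18482) stood at 4.3, 0.9 and 0.4 RPKM in deficient leaves, against 5.7, 10.6 and 13.1 RPKM in sufficient leaves (log2 -2.42, SE 0.55, limma adjusted p = 0.0625, and 0.0288 with the replicate block). PHT4;1 (LAGI01_21324), a phosphate transporter of the chloroplast thylakoid in Arabidopsis, stood at 4.0, 5.0 and 1.5 RPKM in deficient leaves, against 8.8, 10.1 and 9.4 RPKM in sufficient leaves (log2 -1.43, limma adjusted p = 0.131). Both of these members, chosen for their small p, were thus lower. Of the 36 tested, 14 had a log2 change above 0 and 22 below. Among 68 tested phosphate starvation regulators, 0 were called with limma (0 higher and 4 lower at an unadjusted p below 0.05), with a median log2 change of -0.21, or 0.00 after scaling. PHR1 (LAGI01_13275), the transcription factor that drives the starvation response, stood at 5.7, 6.6 and 2.5 RPKM in deficient leaves, against 8.3, 12.6 and 14.5 RPKM in sufficient leaves (log2 -1.24, limma adjusted p = 0.266). Over the 10 tested PHR1 sequences the median log2 change was smaller, -0.60, or -0.33 after scaling. PHO2, which holds back phosphate uptake through ubiquitination, summed over its sequences to 26.6, 39.7 and 11.5 RPKM in deficient leaves, against 38.6, 30.4 and 25.3 RPKM in sufficient leaves. Enzymes of phosphate-sparing glycolysis and organic acid synthesis had 0 of 136 called with limma (4 higher and 2 lower at an unadjusted p below 0.05). The kinase PPCK1 (LAGI01_14415), which activates phosphoenolpyruvate carboxylase, stood at 2.9, 7.7 and 1.8 RPKM in deficient leaves, against 1.7, 1.4 and 0.7 RPKM in sufficient leaves (log2 1.23, limma adjusted p = 0.273). Summed over its 8 sequences, PPCK1 overlapped, at 18.9, 63.3 and 14.9 RPKM in deficient leaves against 10.7, 15.2 and 18.1 RPKM in sufficient leaves.

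Of the 161 falls, 103 have an informative description, under 55 descriptions, and several genes fell in most of their sequences. DPE2, the cytosolic glucanotransferase that converts maltose from starch breakdown at night, was lower in 9 of 10 tested sequences. LAGI01_1036 stood at 3.6, 3.6 and 1.1 RPKM in deficient leaves, against 8.8, 14.1 and 14.5 RPKM in sufficient leaves (log2 -2.08, SE 0.41, limma adjusted p = 0.0299). Every deficient value was below every sufficient one, and sufficient replicate 1 was the lowest of its group. The sum of the 10 sequences was 25.6, 22.6 and 7.7 RPKM in deficient leaves, against 53.5, 83.3 and 88.3 RPKM in sufficient leaves. The 9 log2 changes ran from -2.15 to -1.67, and 7 of the 9 stayed called after scaling. Without deficient replicate 3 they ran from -1.64 to -1.38. These were the 9 falls among 131 sequences of starch synthesis and breakdown, whose median log2 change was -0.59, or -0.31 after scaling.

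Sugar handling had a single fall among 143 sequences, TMT2 (LAGI01_9474), which loads sugar into the vacuole. It stood at 1.6, 4.0 and 1.1 RPKM in deficient leaves, against 6.7, 14.9 and 14.4 RPKM in sufficient leaves (log2 -2.26, SE 0.48, limma adjusted p = 0.0433, and 0.159 after scaling). A related TMT3 sequence (LAGI01_48577) stood at 1.0, 2.2 and 1.0 RPKM in deficient leaves, against 2.3, 10.7 and 12.7 RPKM in sufficient leaves (log2 -2.03, limma adjusted p = 0.137, and 0.0112 with the replicate block). The groups did not overlap in either sequence, though in TMT3 deficient replicate 2 and sufficient replicate 1 were almost level. The 8 tested TMT2 sequences had a median log2 change of -0.97.

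Jasmonate synthesis and signalling had 9 falls and 0 rises among 177 tested sequences, with a median log2 change of -0.61, or -0.34 after scaling. JAZ3, a repressor of jasmonate responses, accounted for 7 of them, out of 13 tested sequences in its 2 spellings. LAGI01_7083 stood at 4.2, 3.6 and 1.0 RPKM in deficient leaves, against 11.6, 23.3 and 26.8 RPKM in sufficient leaves (log2 -2.70, SE 0.48, limma adjusted p = 0.0143). The 13 JAZ3 sequences summed to 59.9, 53.9 and 18.3 RPKM in deficient leaves, against 92.6, 123.3 and 129.7 RPKM in sufficient leaves. COI1, the F-box receptor of jasmonate, fell in 2 of 12 sequences. LAGI01_17981 stood at 2.3, 1.7 and 0.6 RPKM in deficient leaves, against 3.5, 23.4 and 19.8 RPKM in sufficient leaves (log2 -2.72, limma adjusted p = 0.0299, and 0.0965 after scaling). The JAZ3 gap separated all libraries clearly, while in COI1 sufficient replicate 1 lay much nearer to the deficient leaves than to its own group. After scaling 3 of the jasmonate sequences were lower. With the replicate block 18 were.

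Some regulators and proteins of defence, hormone and stress response also fell. EDS1, a lipase-like regulator of resistance to pathogens, was lower in 4 of 6 tested sequences, with log2 changes from -2.93 to -2.34 and 0 called after scaling. LAGI01_15310 stood at 2.3, 1.4 and 0.5 RPKM in deficient leaves, against 5.3, 16.0 and 23.9 RPKM in sufficient leaves (limma adjusted p = 0.0099, and 0.0617 after scaling). Among 68 defence protein sequences 2 fell: the chitinase ATEP3 (LAGI01_49986), at 3.7, 0.3 and 0.7 RPKM in deficient leaves against 7.2, 18.7 and 46.6 RPKM in sufficient leaves (log2 -3.58, limma adjusted p = 0.047), and a thaumatin (LAGI01_40568, log2 -2.21, limma adjusted p = 0.0477). Neither was called after scaling. At an unadjusted p below 0.05 the list had 5 higher and 13 lower, and its median log2 change was -0.20, or 0.06 after scaling, against -0.29 and -0.04 over all tested sequences.

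ARR9, a type A response regulator that dampens cytokinin signalling, fell in 2 of 9 tested sequences. LAGI01_59027 stood at 3.2, 1.6 and 1.1 RPKM in deficient leaves, against 9.3, 17.8 and 23.7 RPKM in sufficient leaves (log2 -2.82, SE 0.42, limma adjusted p = 0.00509, and 0.0363 after scaling). These were the 2 falls among 15 tested type A regulators, which had 0 rises. The heat stress transcription factor HSFA3 fell in both of its tested sequences. LAGI01_13765 stood at 0.3, 0.6 and 0.3 RPKM in deficient leaves, against 2.9, 11.5 and 19.0 RPKM in sufficient leaves (log2 -3.38, SE 0.48, limma adjusted p = 0.004). Its deficient libraries lay close together and its sufficient ones were spread. The heat stress factors had 2 falls and 0 rises among 32. DNAJ co-chaperones, which pass client proteins to HSP70, had 5 falls and 0 rises among 301, where 0.239% of all tested sequences fell. After scaling 2 were lower. The median log2 change of the 301 was -0.28, or -0.03 after scaling, against -0.29 and -0.04 over all tested sequences. LAGI01_27895 stood at 1.8, 1.4 and 0.3 RPKM in deficient leaves, against 5.0, 30.5 and 28.1 RPKM in sufficient leaves (log2 -3.48, SE 0.52, limma adjusted p = 0.00509). Among the chaperones themselves, 0 of 110 large heat shock proteins (1 higher and 2 lower at an unadjusted p below 0.05) and 0 of 20 small ones (0 at an unadjusted p below 0.05) were called with limma.

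The largest falls joined a low level in deficient leaves to a high level in sufficient replicates 2 and 3. A universal stress protein (LAGI01_51409) stood at 0.6, 7.5 and 1.4 RPKM in deficient leaves, against 10.3, 215.7 and 231.7 RPKM in sufficient leaves (SE of the log2 change 0.82, limma adjusted p = 0.00962, and 0.105 after scaling). A dormancy and auxin associated protein (LAGI01_63443) stood at 3.2, 7.7 and 2.5 RPKM in deficient leaves, against 8.4, 214.3 and 239.6 RPKM in sufficient leaves (log2 -4.10, limma adjusted p = 0.0307, and 0.171 after scaling). In both, sufficient replicate 1 lay just above the highest deficient library. Sequences described as related to MATE transporters, a family that exports organic compounds from the cytosol, fell in 5 of 12. LAGI01_78131 stood at 0.3, 0.3 and 0.0 RPKM in deficient leaves, against 2.4, 12.3 and 9.9 RPKM in sufficient leaves (log2 -3.41, SE 0.46, limma adjusted p = 0.00208, and 0.0251 after scaling). Leucine-rich repeat proteins fell in 5 of 137, and LAGI01_35128 among them stood at 24.6, 38.8 and 10.6 RPKM in deficient leaves, against 90.9, 236.6 and 222.0 RPKM in sufficient leaves (log2 -2.93, limma adjusted p = 0.0109). Of those 5, 4 stayed called after scaling.

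Some falls did not follow the split of sufficient replicate 1 from the other sufficient leaves. TPS14 (LAGI01_73631), a terpene synthase described as making linalool, stood at 1.7, 1.4 and 0.4 RPKM in deficient leaves, against 7.7, 5.9 and 7.7 RPKM in sufficient leaves. Its log2 change was -2.28 (SE 0.38, limma adjusted p = 0.0099, 0.00937 after scaling and 0.0398 with the clock covariate). GAMMA-VPE (LAGI01_27411), a vacuolar protease, stood at 1.3, 4.0 and 1.2 RPKM in deficient leaves, against 17.4, 15.1 and 11.8 RPKM in sufficient leaves (log2 -2.65, limma adjusted p = 0.0137, and 0.0251 after scaling). In both sequences the 3 sufficient leaves were close to each other, and sufficient replicate 1 was not the lowest. GAMMA-VPE had 6 tested sequences, of which only this 1 was called. Their median log2 change was -0.62, or -0.30 after scaling.

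Several falls were in enzymes of specialised and amino acid metabolism. The O-methyltransferase ATOMT1 (LAGI01_85072), which methylates phenolic compounds, stood at 40.8, 30.6 and 18 RPKM in deficient leaves, against 54.2, 206 and 214.8 RPKM in sufficient leaves (log2 -2.23, limma adjusted p = 0.0396, and 0.134 after scaling). Glutamate decarboxylase GAD (LAGI01_27199), which makes gamma-aminobutyrate from glutamate, stood at 24.4, 29.2 and 9.4 RPKM in deficient leaves, against 52.6, 124.4 and 163.2 RPKM in sufficient leaves (log2 -2.40, limma adjusted p = 0.0401, and 0.0622 after scaling). AtALMT9 (LAGI01_23148), an anion channel of the vacuole membrane in Arabidopsis, stood at 1.5, 1.2 and 0.3 RPKM in deficient leaves, against 2.6, 10.1 and 12.1 RPKM in sufficient leaves (log2 -2.42, limma adjusted p = 0.0286, and 0.0744 after scaling). No groups overlapped in these 3, and sufficient replicate 1 was the lowest sufficient library in each. Each was the 1 call of its description, among 3, 3 and 10 tested sequences with median log2 changes of -1.34, -2.08 and -0.30. Putative 2-oxoglutarate-dependent dioxygenases, a large family of oxidising enzymes, fell in 4 of 19 sequences, with log2 changes from -2.30 to -1.91 and 0 called after scaling. A tryptophan and tyrosine permease description held 5 falls among 14 sequences, with log2 changes from -2.34 to -1.89 and 3 of the 5 called after scaling. Sufficient replicate 1 was the lowest sufficient library in each of these. The 58 falls without an informative description had log2 changes from -4.80 to -1.81, and 19 of them stayed called after scaling. LAGI01_52707 among them stood at 0.1, 2.1 and 0.6 RPKM in deficient leaves, against 3.5, 82.4 and 111.8 RPKM in sufficient leaves (limma adjusted p = 0.00962).

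**Figure D3:**
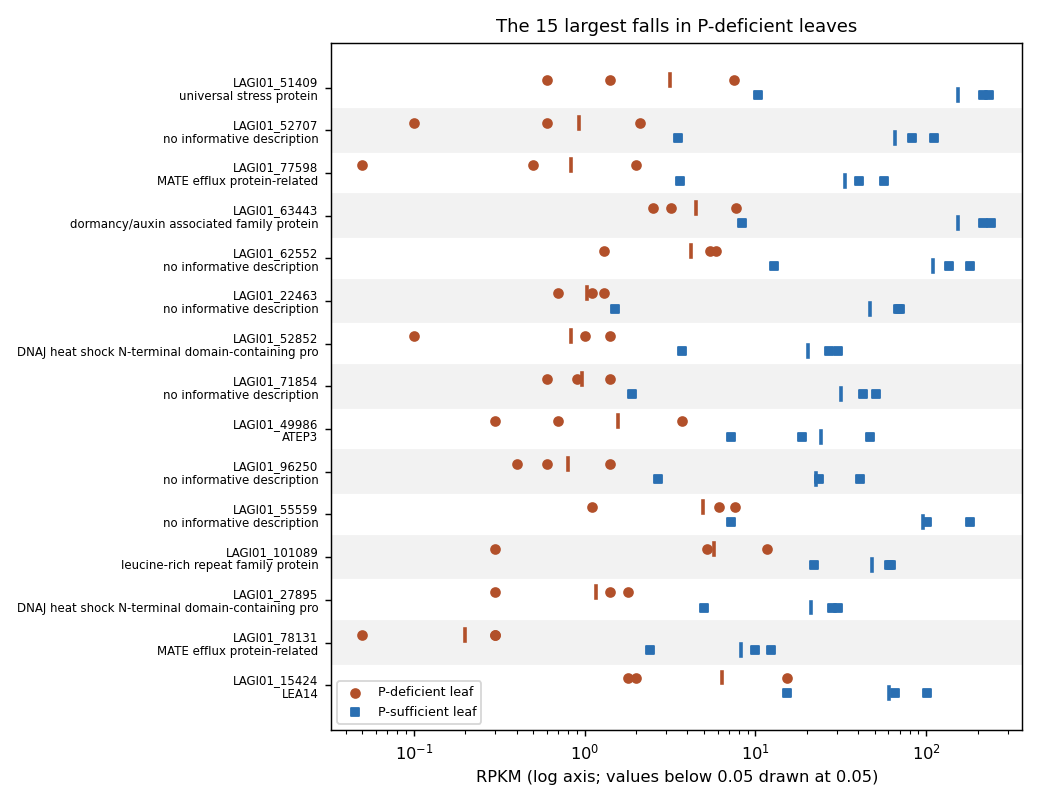
The 15 largest falls in RPKM on a log axis, with the 3 deficient leaf libraries (circles) above the 3 sufficient ones (squares) for each sequence and a bar at each group's mean. Sufficient replicate 1 is the square nearest the deficient values in each row, as for the universal stress protein at 10.3 RPKM, while the other sufficient libraries stand at 215.7 and 231.7 RPKM.

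Clock genes differed between deficient and sufficient leaves and also within the sufficient group. The pseudo-response regulator APRR5, an evening repressor, fell in 2 sequences. LAGI01_52737 stood at 0.5, 0.5 and 0.1 RPKM in deficient leaves, against 1.5, 11.8 and 9.9 RPKM in sufficient leaves (log2 -2.91, SE 0.51, limma adjusted p = 0.0128, and 0.084 after scaling). They were the 2 falls among 44 evening clock sequences (0 higher and 33 lower at an unadjusted p below 0.05). The 44 had a median log2 change of -1.28, or -1.03 after scaling. In 25 of the 44 the deficient libraries lay wholly below the sufficient ones, against 4.87% of all tested sequences. CCR2, an RNA-binding protein with a circadian rhythm in Arabidopsis, fell in 2 of 9, and LAGI01_67918 stood at 28.7, 50.6 and 26.6 RPKM in deficient leaves, against 68.7, 320.3 and 281.9 RPKM in sufficient leaves (log2 -2.43, limma adjusted p = 0.0486). Morning clock genes had 0 of 35 called with limma (29 higher and 0 lower at an unadjusted p below 0.05) and the highest median log2 change of the 32 lists, 1.78, or 2.06 after scaling. With the replicate block 24 of the 35 were higher. LHY, a morning transcription factor, summed over 30 sequences to 594.4, 281.7 and 91.2 RPKM in deficient leaves, against 293.3, 32.2 and 24.8 RPKM in sufficient leaves. Its level in sufficient replicate 1 thus exceeded that of deficient replicates 2 and 3, and 0 of the 35 morning sequences had groups that did not overlap. SIG4, a sigma factor of the chloroplast RNA polymerase, was lower in 3 of 4 sequences, with log2 changes from -2.87 to -2.50 and 0 called after scaling.

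The lists of antenna, photosystem and Calvin cycle genes had medians below that of all tested sequences, and 0 of their members were called. Outside these lists CRR3, known in Arabidopsis from the chloroplast NADH dehydrogenase-like complex, fell in 2 of 4 sequences. LAGI01_62349 stood at 9.4, 11.4 and 2.7 RPKM in deficient leaves, against 18.8, 38.9 and 49.2 RPKM in sufficient leaves (log2 -2.22, limma adjusted p = 0.0361, and 0.0489 after scaling). Its groups did not overlap, and the other called sequence, LAGI01_25442, was not called after scaling (limma adjusted p = 0.0571). Light-harvesting antenna proteins had 0 of 55 called with limma (2 higher and 9 lower at an unadjusted p below 0.05), with a median log2 change of -0.66, or -0.34 after scaling. Photosystem and electron transport proteins had 0 of 130 (1 higher and 26 lower) and a median of -0.71, or -0.38. Calvin cycle enzymes had 0 of 103 (0 higher and 18 lower) and a median of -0.69, or -0.39. Without deficient replicate 3 these 3 medians were -0.12, -0.22 and -0.10, against 0.07 over all tested sequences. GAPA (LAGI01_82422), a glyceraldehyde-3-phosphate dehydrogenase of the Calvin cycle, stood at 26.4, 192.5 and 6.9 RPKM in deficient leaves, against 133.4, 206.5 and 314.5 RPKM in sufficient leaves (log2 -2.61, SE 0.70, limma adjusted p = 0.132, and 0.0478 with the replicate block). LHCA4 (LAGI01_89197), an antenna protein of photosystem I, stood at 16.7, 45.5 and 13.2 RPKM in deficient leaves, against 35.8, 54.8 and 49.9 RPKM in sufficient leaves (log2 -1.07, limma adjusted p = 0.371). In both genes the groups overlapped at deficient replicate 2. The members with the smallest p of the antenna and photosystem lists went the other way. A CAB1 sequence (LAGI01_53398) stood at 29.3, 27.2 and 9.4 RPKM in deficient leaves, against 25.1, 4.8 and 0.7 RPKM in sufficient leaves (log2 1.88, limma adjusted p = 0.31). PSBR (LAGI01_69605) had a log2 change of 1.70 (limma adjusted p = 0.167). The groups of CAB1 and of PSBR overlapped as well. The antenna list summed to 59931, 40733 and 14996.6 RPKM in deficient leaves, against 63085.9, 55215.7 and 48538 RPKM in sufficient leaves. Before scaling, deficient replicate 3 was thus far below the rest. The median-of-ratios factor of that library was 0.45, against 1.02 to 1.26 in the other leaf libraries. The part of composition in its low antenna sum was not tested. In whole-leaf RNA, fewer cells of a type and less RNA per cell cannot be told apart.

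Chlorophyll and haem synthesis had 0 of 124 called with limma (0 higher and 10 lower at an unadjusted p below 0.05) and photorespiration 0 of 90 (0 higher and 5 lower), with median log2 changes of -0.59 and -0.43. After scaling these were -0.29 and -0.10. PORA (LAGI01_76599), the protochlorophyllide reductase of chlorophyll synthesis, stood at 66.9, 56.3 and 23.7 RPKM in deficient leaves, against 96.1, 123.7 and 80.3 RPKM in sufficient leaves (log2 -1.13, limma adjusted p = 0.361). Its groups did not overlap. Phenylpropanoid and flavonoid synthesis, which includes the anthocyanin pathway, had 0 of 116 called with limma (1 higher and 7 lower) and a median of -0.06, or 0.23 after scaling. Phenylalanine ammonia lyase (LAGI01_84931), the entry enzyme of that pathway, stood at 7.2, 5.9 and 1.3 RPKM in deficient leaves, against 6.0, 26.5 and 36.2 RPKM in sufficient leaves (log2 -2.06, limma adjusted p = 0.208). Nitrogen and sulfur uptake had 0 of 100 called with limma (4 higher and 11 lower), senescence and autophagy 0 of 174 (2 and 15) and cytosolic ribosomal proteins 0 of 820 (1 and 23). Their medians were -0.19, -0.36 and -0.41, or 0.05, -0.11 and -0.09 after scaling. The nitrate transporter ATNRT2.5 (LAGI01_25479) stood at 2.8, 1.3 and 0.4 RPKM in deficient leaves, against 7.5, 3.6 and 5.5 RPKM in sufficient leaves (log2 -1.73, limma adjusted p = 0.127, and 0.0296 with the replicate block).

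Markers of particular cells and of seeds had 1 call among them. Guard cell and vascular markers had 0 of 87 called with limma (10 higher and 4 lower at an unadjusted p below 0.05). Their median log2 change was -0.002, or 0.26 after scaling, with 42 of the 87 above 0 and 45 below. Over all 131 in the expression table the sum was 422, 584.9 and 219.8 RPKM in deficient leaves, against 461.7, 271.6 and 257.6 RPKM in sufficient leaves. TMM (LAGI01_36739), a receptor-like protein of stomatal patterning, stood at 9.1, 53.0 and 21.5 RPKM in deficient leaves, against 10.4, 5.9 and 4.6 RPKM in sufficient leaves (log2 1.66, limma adjusted p = 0.148). XCP2 (LAGI01_33066), a protease of developing xylem, stood at 0.4, 35.5 and 15.8 RPKM in deficient leaves, against 1.1, 0.8 and 0.1 RPKM in sufficient leaves (log2 2.91, limma adjusted p = 0.198, and 0.0394 with the replicate block). Deficient replicates 2 and 3 carried the high values in both, and deficient replicate 1 lay within the sufficient range. Root markers had 0 of 6 tested sequences called with limma (0 higher and 2 lower). Over all 16 root markers in the expression table the sum was 207.6, 227.8 and 85.4 RPKM in deficient leaves, against 151.3, 86.8 and 64.1 RPKM in sufficient leaves. In the seed list of 22 the fall was LEA14 (LAGI01_15424), a late embryogenesis abundant protein, at 15.3, 2.0 and 1.8 RPKM in deficient leaves against 15.4, 66.1 and 101.2 RPKM in sufficient leaves (log2 -3.40, limma adjusted p = 0.0305, and 0.165 after scaling). The 7 tested transcripts of ribosomal RNA or organelle genes had 0 calls with limma (0 at an unadjusted p below 0.05), and summed to 32.8, 23.2 and 381.6 RPKM in deficient leaves, against 29.8, 101.6 and 154.4 RPKM in sufficient leaves. Deficient replicate 3 thus held the highest organelle sum as well as the lowest antenna sum.

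**Figure D4:**
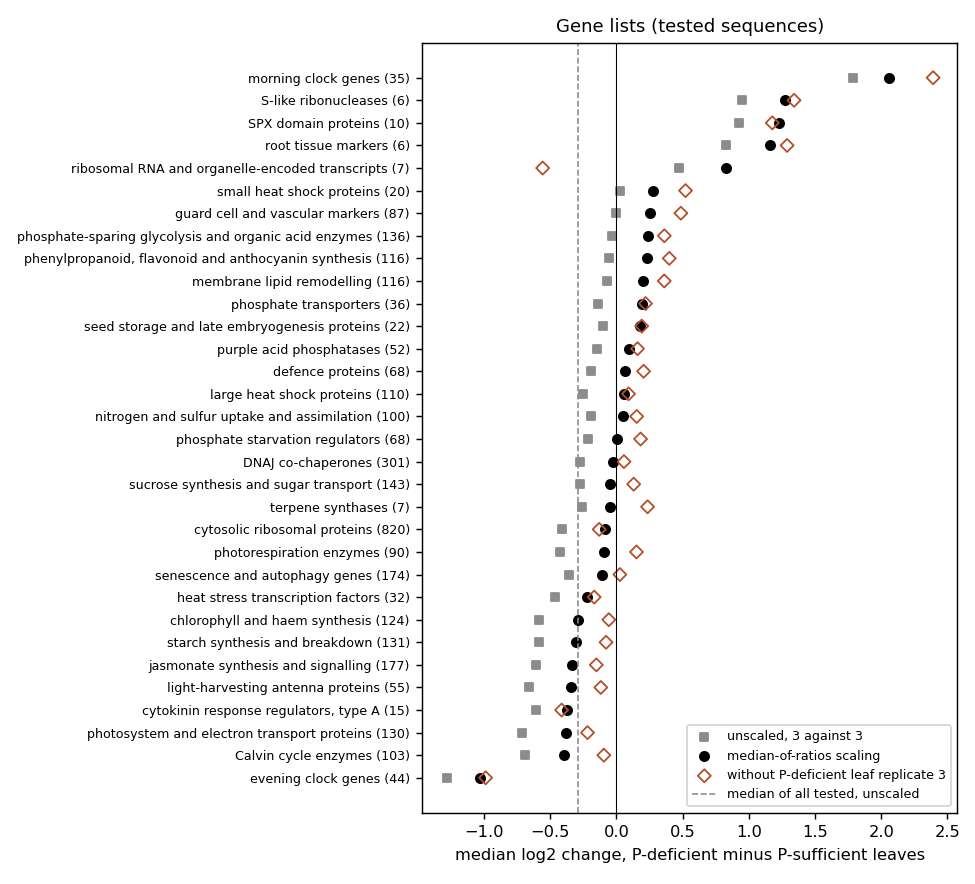
Median log2 change (deficient minus sufficient leaves) of the tested sequences of each of 32 gene lists, with the number tested in brackets, unscaled (squares), after median-of-ratios scaling (black circles) and without deficient replicate 3 (open diamonds). Morning clock genes stand highest at 1.78 and evening clock genes lowest at -1.28 unscaled, and the dashed line marks the median of all tested sequences, -0.29.

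The leaf calls were set beside the change of the same sequences in roots, where the labels call the deficient samples proteoid roots, so root type differs there as well as supply. In roots 50 of the 67341 sequences were higher (0.0742%) and 10 lower (0.0148%). Of the 24 leaf rises 12 were also called higher in roots, and 17 had a root log2 change above 1. The median root log2 change of all 24 was 2.96. All 6 phosphatase rises and both PAP12 sequences were among the 12, and PAP17 and PAP3 had root log2 changes of 2.16 and 2.06 (limma adjusted p = 0.206 and 0.608). LAGI01_63011 changed by 4.65 in leaves and 4.70 in roots. LBD21 (LAGI01_70602) differed from these, with a root log2 change of -0.14. Of the 161 leaf falls, 0 were called in roots with limma (12 lower and 3 higher at an unadjusted p below 0.05), 149 had a root log2 change within 1 of 0, and 80 stayed below 1 RPKM in all 6 root libraries.

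The difference of the leaf and root responses was tested directly. It passed for 15 of 67341 sequences (0.0223%), 1 of them larger in leaves and 14 smaller, and for 37 with the replicate block. The count was 1 after median-of-ratios scaling and 0 without deficient replicate 3. Of the 185 leaf calls 3 were among the 15. LAGI01_72026, without an informative description, stood at 13.6, 51.5 and 11.8 RPKM in deficient leaves, against 0.8, 0.2 and 0.1 RPKM in sufficient leaves. In roots it stood at 1.3, 0.4 and 0.5 RPKM with deficient and at 0.1, 0.2 and 0.6 RPKM with sufficient phosphorus. Its leaf change exceeded its root change by 4.07 on the log2 scale (limma adjusted p = 0.036). The falls were GAMMA-VPE (LAGI01_27411), with log2 changes of -2.65 in leaves and 1.25 in roots (limma adjusted p of the difference 0.0366), and LAGI01_65417, which has no informative description, with -2.55 and 0.93 (0.0368). The other 12 were not called in leaves. They included 6 formamidase sequences, such as LAGI01_31643 with log2 changes of -0.12 in leaves and 3.72 in roots, and 3 of ALDH11A3, the non-phosphorylating glyceraldehyde-3-phosphate dehydrogenase, such as LAGI01_24999 with 0.17 and 4.48.

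**Figure D5:**
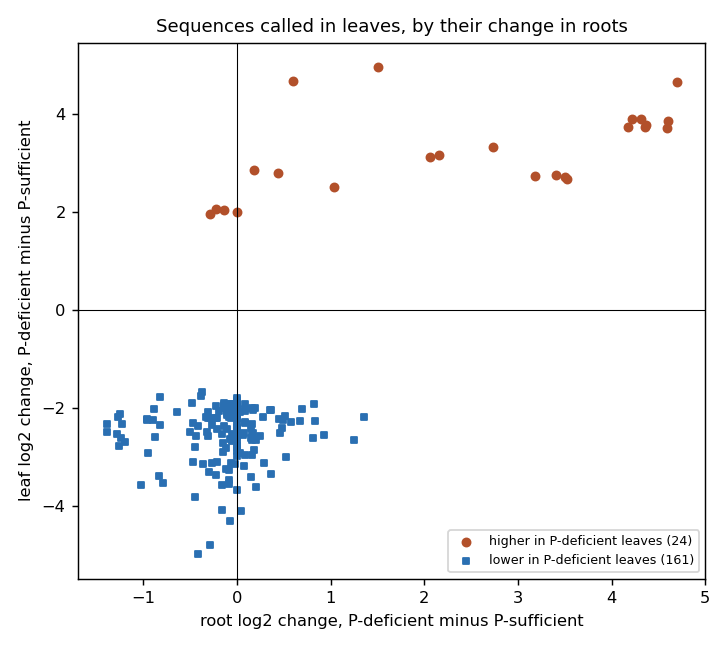
Log2 change in leaves (vertical axis) against log2 change in roots (horizontal axis), deficient minus sufficient in each, for the 185 sequences called in leaves. Of the 24 rises 17 lie right of a root change of 1, and 149 of the 161 falls lie within 1 of a root change of 0. Of the 161 falls 80 are below 1 RPKM in every root library, which keeps their root change small.

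Among described sequences that were not called and whose groups did not overlap, those with the smallest p were examined in each direction. On the higher side a cytochrome c oxidase description (LAGI01_67310) came closest, at 16.5, 34.6 and 11.6 RPKM in deficient leaves, against 2.5, 6.8 and 1.7 RPKM in sufficient leaves (log2 2.41, SE 0.55, limma adjusted p = 0.0623, and 0.0119 with the replicate block). The heat stress factor HSFB4 (LAGI01_52444) stood at 5.8, 12.7 and 5.7 RPKM in deficient leaves, against 2.3, 2.6 and 0.4 RPKM in sufficient leaves (log2 2.01, limma adjusted p = 0.0815, and 0.0169 with the replicate block), the opposite side from HSFA3. CYCD3;1 (LAGI01_64489), a cyclin of cell division, stood at 2.4, 10.1 and 3.4 RPKM in deficient leaves, against 1.5, 0.6 and 1.3 RPKM in sufficient leaves (limma adjusted p = 0.181). On the lower side, a putative lipoxygenase (LAGI01_53456), of the enzyme family that starts jasmonate synthesis, stood at 7.9, 12.9 and 5.5 RPKM in deficient leaves, against 19.3, 49.2 and 30.2 RPKM in sufficient leaves (log2 -1.83, limma adjusted p = 0.0526, and 0.012 with the replicate block). The clock gene GI (LAGI01_39006) stood at 1.1, 0.7 and 0.4 RPKM in deficient leaves, against 1.7, 7.8 and 6.0 RPKM in sufficient leaves (log2 -2.03, limma adjusted p = 0.0526, and 0.014 with the replicate block).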

How the data were processed

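Messenger RNA selected on poly-T beads was read in single reads of 76 cycles, per the labels' protocols, with replicate 1 libraries run 1 per lane and the barcoded libraries of replicates 2 and 3 run 2 per lane. Bowtie is named, per the submitters' processing notes, without a version. The way reads were counted, and the depth, were not stated in the sources used here. The authors deposited values with 1 decimal, read here as RPKM, a unit inferred from the values alone. Sequence names and descriptions come from the deposited annotation, and no sequences or genome positions are given.

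Sequences at 1 or more in at least 3 of the 6 leaf libraries were kept and transformed to log2(RPKM + 0.5), so fold changes of low sequences are understated. Over all 12 libraries 4 group means were fitted in limma 3.58.1 (R 4.3.3), with the prior spread trended on intensity and with Benjamini-Hochberg adjustment over the 67341 sequences tested. Sequences with an adjusted p below 0.05 are called. The fit was tested on simulated data. Figures used matplotlib 3.10.9.

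Named genes are the 15 largest calls in each direction, the 10 described sequences in each direction with the smallest p among those not called whose groups did not overlap, 1 per description and averaging 5 RPKM or more where higher, and the 2 smallest p of each list. A selection of these is printed, and the others named were chosen after their values were seen. Members and the 32 gene lists, defined by patterns in the descriptions, were chosen with earlier results of these data known. P-values measure the spread between samples that the labels call biological replicates.

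Same-numbered libraries had deviations from their group means that correlated above 0.1 in every pair, with correlations across sequences of 0.264, 0.281 and 0.11 in leaves and 0.765, 0.428 and 0.65 in roots for replicates 1 to 3. By that bar the number was taken to pair the samples, but replicates 2 and 3 were not separated by it: deficient replicate 3 correlated at 0.185 with sufficient replicate 2 in leaves, and deficient replicate 2 at 0.481 with sufficient replicate 3 in roots. The numbers also follow the sequencing format, in which replicate 1 differs from the others. The main fit holds no replicate term, so its calls and p-values do not use the pairing. It enters only in the fits with the replicate block.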

Additional observations from a re-analysis of the deposited data

Results flagged for a closer look

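LAGI01_72026, a sequence without an informative description, was singled out because its response differed between tissues by the test of the difference itself. Its leaf change exceeded its root change by 4.07 on the log2 scale (limma adjusted p = 0.036). The libraries read 13.6, 51.5 and 11.8 RPKM in deficient leaves, against 0.8, 0.2 and 0.1 RPKM in sufficient leaves. In roots they read 1.3, 0.4 and 0.5 RPKM with deficient and 0.1, 0.2 and 0.6 RPKM with sufficient phosphorus. Root type differs between the root groups, so tissue and root type cannot be told apart in this difference.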

How the results depend on the processing

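Counts of calls moved with most choices, and the cause was not tested. As reported, 185 sequences were called, 24 higher and 161 lower, and 15 for the leaf minus root difference. Leaving out 1 leaf replicate at a time gave 4 to 2503 calls in leaves, 3 to 325 higher and 1 to 2178 lower, and 0 to 426 for the difference. The lowest leaf counts came without deficient replicate 3 and the highest without sufficient replicate 1. Without sufficient replicate 2 there were 36 leaf calls, without sufficient replicate 3 32, and without deficient replicate 1 1196. Median-of-ratios scaling gave 107 (80 lower, difference 1), quantile normalization 322 (94 higher, difference 7), and scaling to the sum without the 20 largest sequences 70 (52 lower, difference 0). A pseudocount of 0.1 gave 61 (45 lower, difference 0). No filter gave 7 (5 higher, 2 lower), a filter on 3 of 12 libraries 24 (9 and 15, difference 52), and a leaf mean of at least 5 90 (72 lower, difference 6). The 6 leaf libraries alone gave 781 (92 and 689), the barcoded libraries alone 4311 (505 and 3806, difference 1303), and values summed per description 59 (4 and 55, difference 7). The replicate block gave 618 (85 and 533, difference 37), and the replicate block within the leaf libraries 966 (117 and 849). With the clock covariate there were 70 (38 and 32, difference 24). Alternatives chosen after seeing the data combined median-of-ratios scaling with another choice. That scaling gave 6 without deficient replicate 3 (5 and 1, difference 0) and 4172 without sufficient replicate 1 (1611 and 2561, difference 960). With the 6 leaf libraries only it gave 0 calls with limma (0 higher and 0 lower, with 6131 at an unadjusted p below 0.05). A pseudocount of 1 and a fit without the intensity trend gave 209 and 159. Sample weights from limma did not converge and that alternative was not run.

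Signs turned for few named sequences, none of them called. With the clock covariate CAB1 (LAGI01_53398) stood at -0.16, CCA1 at -0.17 (LAGI01_54892) and -0.54 (LAGI01_59760), a maturase (LAGI01_2290) at 1.72 and HSP21 (LAGI01_57877) at 0.59. CCA1 is itself part of the clock covariate, so its turned sign there carries no separate information. The chloroplast ribosomal transcript LAGI01_72440 stood at -0.069 with median-of-ratios scaling without deficient replicate 3. TPS21 (LAGI01_27296) stood at -0.41 as reported, at 0.063 in that fit, at 0.18 with the scaling without sufficient replicate 1, and at -1.01 to 0.14 when 1 leaf replicate was left out, the highest without deficient replicate 3. The depth of the libraries is unknown, so no counting limit is given for low sequences.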
